A study of Homo sapiens with 6 samples.

Results

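Messenger RNAs of 10 genes for alpha- and beta-tubulin were followed in PC9 cells, an EGFR-mutant line of non-small cell lung cancer. The study compared drug-tolerant persisters (DTPs), the cells left in culture with erlotinib, an inhibitor of the EGFR kinase, with parental cells given the vehicle DMSO. DTPs (3 arrays) had been kept in 2 µM erlotinib for 9 days from 80% confluency and were harvested on day 10. Parental cells (3 arrays) were harvested on day 3 at 100% confluency by the growth protocol, whereas the design text and the methods give 9 days for both groups. Both groups carried a stably integrated GFP vector, and the labels do not say whether the replicates were separate experiments. Drug, culture time and density cannot be told apart in this design, nor can survival of a part of the cells be told apart from a change within cells, nor fewer cells of a kind from less RNA per cell.

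The genes were TUBA1A, TUBA1B, TUBA1C and TUBA4A for alpha-tubulin and TUBB, TUBB2A, TUBB2B, TUBB3, TUBB4B and TUBB6 for beta-tubulin, 10 of the 19775 genes on the array. They were chosen by their values in DTPs against parental cells on these same arrays, so every value, difference and count for them is a description without a test. On the Affymetrix Human Genome U133 Plus 2.0 array a gene is read by 1 or more probe sets, and a probe set was included if its annotation named exactly 1 gene and that gene was one of the 10. This gave 20 probe sets, 10 for alpha- and 10 for beta-tubulin. The values are log2 summaries after quantile normalization and have no detection call. Tubulin genes are alike in their coding sequence, and 14 of the 20 probe sets carry the suffix _x_at, given to sets with some probes that also match unrelated or related transcripts. One carries _s_at, shared by several transcripts, and 5 carry neither mark. TUBA1C, TUBB2B, TUBB3 and TUBB4B were read by _x_at probe sets alone, so these 4 genes cannot be told apart from close relatives on this array. The only other probe set of TUBA1B was dim, so its bright readings have the same limit.

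Microtubules are hollow polymers of alpha- and beta-tubulin dimers that carry organelle transport, shape the cell and build the mitotic spindle. Vertebrates encode each subunit in several genes, the isotypes, which differ mainly in their acidic C-terminal tails, where motors and modifying enzymes act. Cells also limit their tubulin mRNAs by autoregulation, in which an excess of free dimers sets off decay of the mRNAs that are being translated. Beta-tubulin is the target of the taxanes and vinca alkaloids used in lung cancer.

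The DNA just before the transcription start is shown for 6 of the genes: TUBA1A, which had the largest difference described below, its neighbour TUBA1B, TUBA4A and TUBB6, which had the next largest, and TUBB2A with its close relative TUBB2B. Sequences are from RefSeq (GRCh38.p14) and run 5′ to 3′ on the strand of the gene. They hold the 150 bases before the start. Capitals mark 3 short motifs on either strand. The CCAAT box was searched as CCAAT, which reads ATTGG on the other strand. The GC box was searched as GGGCGG, which reads CCGCCC on the other strand. The letters TATAA stood for a TATA box.
TUBA1A (chr12:49189081-49189230, minus strand): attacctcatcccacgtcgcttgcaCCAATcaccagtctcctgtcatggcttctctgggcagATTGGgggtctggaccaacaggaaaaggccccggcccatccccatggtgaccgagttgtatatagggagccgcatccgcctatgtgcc
TUBA1B (chr12:49131396-49131545, minus strand): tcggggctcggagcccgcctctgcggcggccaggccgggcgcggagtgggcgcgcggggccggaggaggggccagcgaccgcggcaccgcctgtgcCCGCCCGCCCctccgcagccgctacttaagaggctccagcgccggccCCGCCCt
TUBA4A (chr2:219253919-219254068, minus strand): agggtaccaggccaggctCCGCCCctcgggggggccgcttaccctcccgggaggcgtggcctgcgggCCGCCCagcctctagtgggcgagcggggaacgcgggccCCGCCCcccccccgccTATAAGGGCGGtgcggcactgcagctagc
TUBB2A (chr6:3157545-3157694, minus strand): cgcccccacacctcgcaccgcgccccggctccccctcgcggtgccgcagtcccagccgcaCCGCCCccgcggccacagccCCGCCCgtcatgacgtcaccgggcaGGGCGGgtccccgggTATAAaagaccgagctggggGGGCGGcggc
TUBB2B (chr6:3227654-3227803, minus strand): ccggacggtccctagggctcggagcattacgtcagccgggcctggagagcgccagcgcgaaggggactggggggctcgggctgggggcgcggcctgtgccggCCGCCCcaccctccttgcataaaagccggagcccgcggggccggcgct
TUBB6, first annotated start (chr18:12307519-12307668, plus strand): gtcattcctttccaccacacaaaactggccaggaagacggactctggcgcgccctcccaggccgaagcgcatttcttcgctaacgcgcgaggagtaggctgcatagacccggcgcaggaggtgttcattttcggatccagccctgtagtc
TUBB6, second annotated start (chr18:12308091-12308240, plus strand): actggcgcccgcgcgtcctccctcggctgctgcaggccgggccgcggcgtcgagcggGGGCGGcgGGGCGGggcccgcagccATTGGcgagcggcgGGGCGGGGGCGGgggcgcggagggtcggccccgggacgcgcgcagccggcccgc

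All 10 genes had a promoter entry, and 4 of them had more than 1 start. Only the exact letters were searched, so variants were not counted. Examples are TATATA in the sequence shown for TUBA1A and CATAAA in that shown for TUBB2B. In the 250 bases before the start, TUBA1A held 2 CCAAT matches and no match to GGGCGG or TATAA. TUBA1B held 3 GC box matches, a pair of which overlap, and neither of the other motifs. TUBA4A held 4 GC box matches and a TATA match 29 bases before the start, which directly adjoins the last GC box. TUBB2A held 5 GC box matches and a TATA match at 30 bases, while TUBB2B held 1 GC box and 1 CCAAT match and no TATA match. The first start of TUBB6 had no match, and the second had 6 GC box matches, a pair of which touch, and 1 CCAAT match. Over all starts, 7 of the 10 genes had a CCAAT match, 8 a GC box and 5 a TATA match in at least 1 window. Counted by window, 9 of the 15 held CCAAT, 9 GGGCGG and 5 TATAA, and of all 35116 promoter windows of the same length 32% held CCAAT, 42.6% GGGCGG and 18.9% TATAA. None of the 3 motifs as searched was common to the 4 genes that differed by more than 2-fold (TUBA1A, TUBA4A, TUBB2A and TUBB6). Which start was used in PC9 cells was not measured.

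The difference in log2 value, DTP minus parental, was above 0 for 19 of the 20 tubulin probe sets. It ran between -0.07 and 5.69 with a median of 0.42, against a median of -0.05 over all 54613 probe sets. The 9 probe sets past both thresholds of the study (adjusted p under 0.05 by limma with Benjamini-Hochberg adjustment, and a fold over 1.5) were all higher in DTPs. Over all probe sets 7.56% were past both thresholds and higher in DTPs, and 4.93% were lower. Counting the adjusted p alone gave 18 of the 20, against 38.7% of all probe sets. In 18 of the 20, every DTP array lay above every parental array, as it did in 22.4% of all probe sets. Since the genes were selected on these values, nothing is read from these counts. The size of the difference divided the isotypes: TUBA1A, TUBB6, TUBA4A and TUBB2A differed by more than 2-fold, TUBB and TUBB3 by about 1.5- to 1.6-fold, and TUBA1B, TUBA1C, TUBB4B and TUBB2B had no probe set past the fold.

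**Figure D1:**
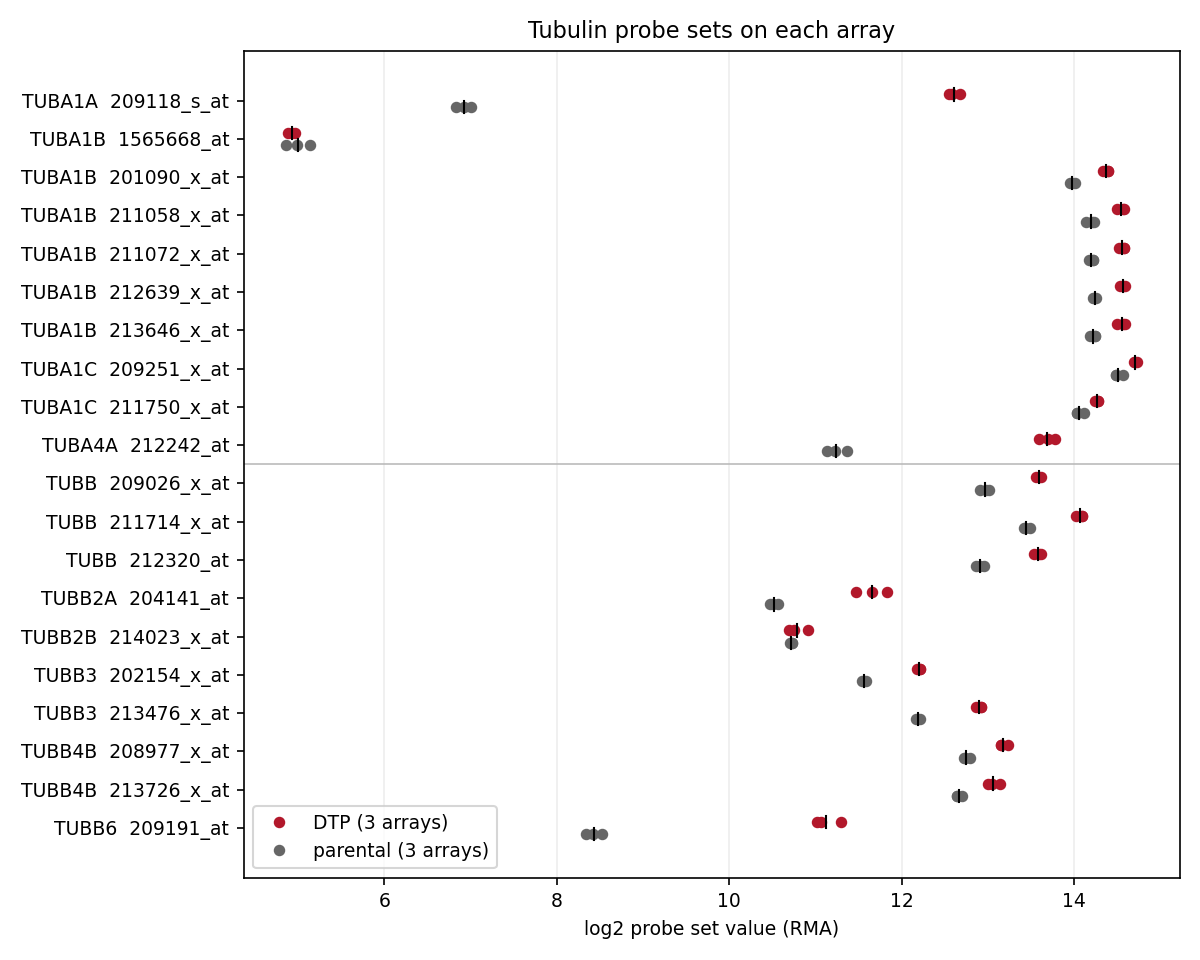
Log2 value of each of the 20 tubulin probe sets on every array, with DTP arrays (red) above parental arrays (grey) in each row and black ticks at the group means (n = 3 each). Alpha-tubulin is above the grey line and beta-tubulin below it. The groups overlap in 1 probe set of TUBA1B and in that of TUBB2B, and stand apart in the other 18. Values of different probe sets are not comparable with each other.

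Among the alpha-tubulins, TUBA1A differed most. This isotype is abundant in neurons of the developing brain. Its only probe set (209118_s_at) read 12.58, 12.55 and 12.68 on the DTP arrays, against 7.0, 6.92 and 6.83 on the parental arrays. The DTP values lay close together and far above all 3 parental values, which were below the array-wide median of 7.29. The difference was 5.69 ± 0.075 (limma SE, n = 3 each), a 51.4-fold higher value in DTPs and the rank of 3 among 19775 genes. Because summaries of dim probe sets are compressed, this fold may understate the difference in RNA.

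The genes whose profile over the 6 arrays was most like that of TUBA1A, by the root mean square difference of log2 values centred on each gene's mean, were GBP1 (0.104), GASK1B (0.13) and MYL9 (0.186). GBP1 encodes an interferon-inducible GTPase, GASK1B a Golgi-associated protein and MYL9 a regulatory light chain of myosin. GBP1 averaged 11.97 in DTPs and 6.43 in parental cells, GASK1B 9.98 in DTPs and 4.44 in parental cells, and MYL9 11.01 in DTPs and 5.65 in parental cells. All 3 parental means were below the array-wide median, and those of GASK1B and MYL9 below the 25th percentile of 6.06, so the sizes of these differences are uncertain. The likeness is that of a single step between 2 groups over 6 arrays.

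TUBA4A encodes an alpha-tubulin that lacks the C-terminal tyrosine of most other isotypes. Its probe set (212242_at) read 13.69, 13.59 and 13.77 in DTPs, against 11.36, 11.14 and 11.23 in parental cells. The groups did not overlap, and TUBA4A was 5.44-fold higher in DTPs (log2 difference 2.44 ± 0.082, rank 94). TUBA4B, a gene annotated on the opposite strand and overlapping TUBA4A, was not among the 10 and was looked at after its values were seen. It read 8.99, 9.07 and 9.01 in DTPs, against 8.0, 7.95 and 8.03 in parental cells. This 2.05-fold difference (log2 1.03 ± 0.065) is given as a description without a test. The probe sets of both genes read higher in DTPs, but how far they read each other's RNA was not tested.

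TUBA1B and TUBA1C, the broadly expressed alpha-tubulins, lie beside TUBA1A on chromosome 12, with no protein-coding gene between them. The 5 _x_at probe sets of TUBA1B differed by 0.33 to 0.39, and both of TUBA1C (209251_x_at and 211750_x_at) by 0.20. For TUBA1C, 209251_x_at read 14.69, 14.70 and 14.73 in DTPs, against 14.48, 14.48 and 14.57 in parental cells. The arrays of the groups did not overlap in any of these 7 probe sets, but none reached 1.5-fold. Their means were above those of at least 99.7% of all probe sets, near the upper end of the scale, and whether the readings were compressed there was not tested.

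The one TUBA1B probe set without the _x_at mark (1565668_at) was dim. It read 4.93, 4.97 and 4.88 in DTPs, against 4.86, 5.14 and 4.99 in parental cells. The groups overlapped, and the log2 difference was -0.07 ± 0.082. This probe set and the 5 bright ones therefore gave different signs for the same gene. On ribosomal or spike-in centring the dim probe set turned to 0.06 and 0.08.

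**Figure D2:**
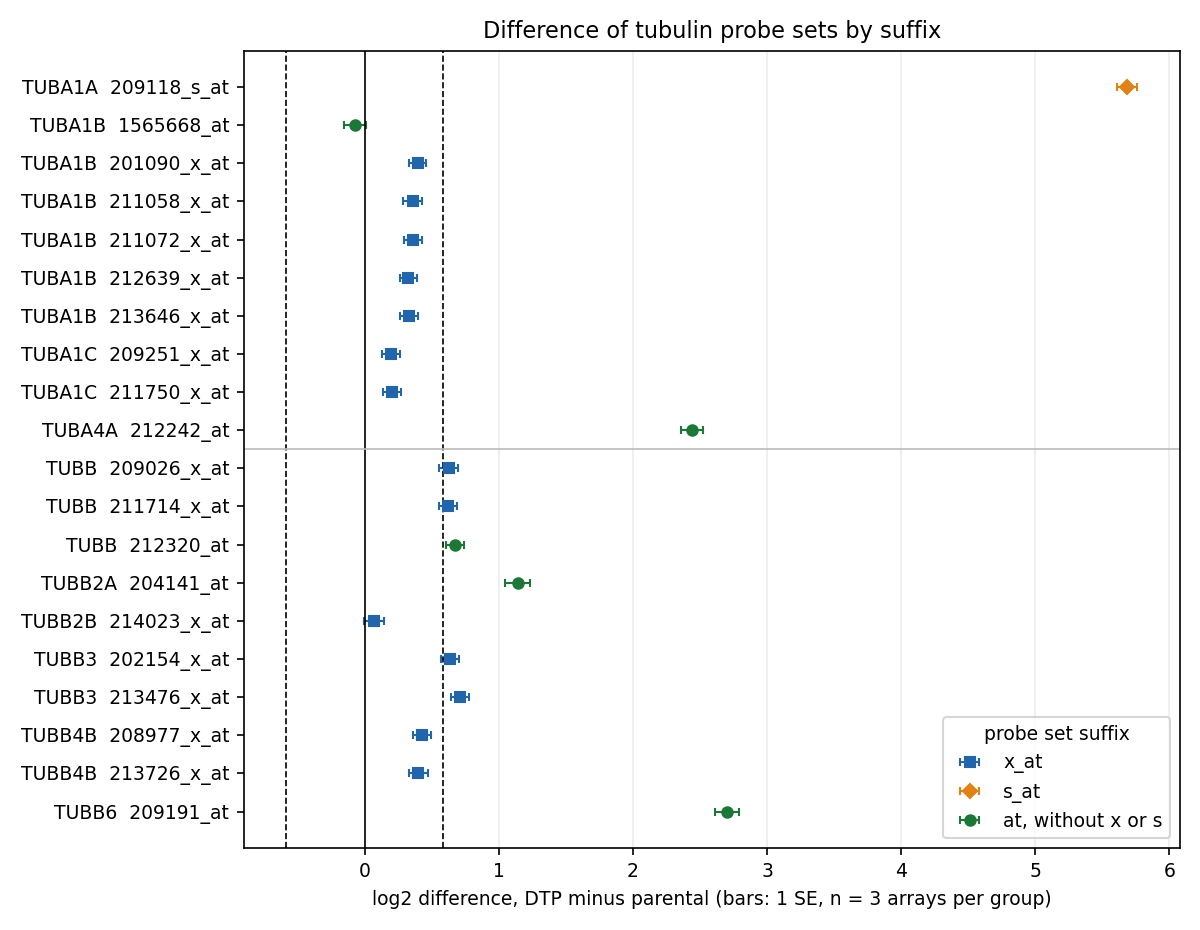
Log2 difference, DTP minus parental, of each tubulin probe set with 1 limma SE (n = 3 arrays per group), marked by suffix. Dashed lines mark 1.5-fold either way. The _x_at probe sets lie between 0.07 and 0.71, while the other 6 spread between -0.07 and 5.69.

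Among the beta-tubulins, TUBB6 differed most. Its product, class V beta-tubulin, is known to disturb microtubule arrays when made in excess. Its probe set (209191_at) read 11.02, 11.07 and 11.29 in DTPs, against 8.52, 8.42 and 8.33 in parental cells. DTP replicate 3 was the highest, and all DTP arrays were far above the parental ones. TUBB6 was 6.50-fold higher in DTPs (log2 difference 2.70 ± 0.089, rank 69).

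TUBB2A and TUBB2B are near-identical beta-tubulins of neurons and neighbours on chromosome 6, with no protein-coding gene between them. TUBB2A (204141_at) read 11.66, 11.47 and 11.83 in DTPs, against 10.47, 10.50 and 10.57 in parental cells. It was 2.20-fold higher in DTPs without overlap (log2 difference 1.14 ± 0.092, rank 540). TUBB2B (214023_x_at) read 10.70, 10.75 and 10.92 in DTPs, against 10.70, 10.73 and 10.72 in parental cells. These values overlapped and differed by 0.07 ± 0.076, within the spread of the DTP arrays. With DTP replicate 3 left out the TUBB2B difference was 0.007.

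TUBB, the main beta-tubulin of most dividing cells, was read by 3 probe sets. The one without a mark (212320_at) gave 13.61, 13.53 and 13.59 in DTPs, against 12.95, 12.86 and 12.90 in parental cells. It was 1.59-fold higher in DTPs (log2 difference 0.67 ± 0.069), and both _x_at probe sets differed by 0.62 and 0.63. The 3 probe sets of TUBB thus gave nearly the same difference.

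TUBB3, the class III beta-tubulin used as a marker of neurons and associated with taxane resistance in tumours, was read by 2 _x_at probe sets. The first (202154_x_at) gave 12.21, 12.17 and 12.21 in DTPs, against 11.54, 11.58 and 11.56 in parental cells, a log2 difference of 0.64. The second (213476_x_at) gave 12.86, 12.92 and 12.92 in DTPs, against 12.18, 12.16 and 12.21 in parental cells, a difference of 0.71 ± 0.067 or 1.64-fold. Neither overlapped, and the replicates of each group agreed closely.

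TUBB4B, a widely expressed beta-tubulin also found in cilia, was below the fold in both probe sets. The first (208977_x_at) read 13.16, 13.15 and 13.23 in DTPs, against 12.72, 12.73 and 12.79 in parental cells. The second (213726_x_at) read 13.00, 13.04 and 13.14 in DTPs, against 12.64, 12.63 and 12.70 in parental cells. The differences were 0.43 and 0.40, and the groups stood apart in both.

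The median difference was 0.34 over the alpha-tubulin probe sets, 2 of which were past both thresholds, and 0.63 over the beta-tubulin probe sets, with 7 past both. The alpha-tubulin median is set by the TUBA1B and TUBA1C probe sets, which make up 8 of the 10. The _x_at probe sets had a median of 0.38, and the other 6 a median of 1.79. The 3 largest differences all came from probe sets without the _x_at mark. Differences between isotypes and between kinds of probe set cannot be told apart for the genes read by _x_at probe sets alone. The same holds for TUBA1B, whose bright probe sets all carry that mark. The SD of the tubulin probe sets was 0.017 to 0.181 within DTPs and 0.014 to 0.139 within parental cells. DTP replicate 3 was the highest DTP array in 14 of the 20, against 36.2% of all probe sets, and lay a median of 0.03 above the mean of the other DTP arrays.

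**Figure D3:**
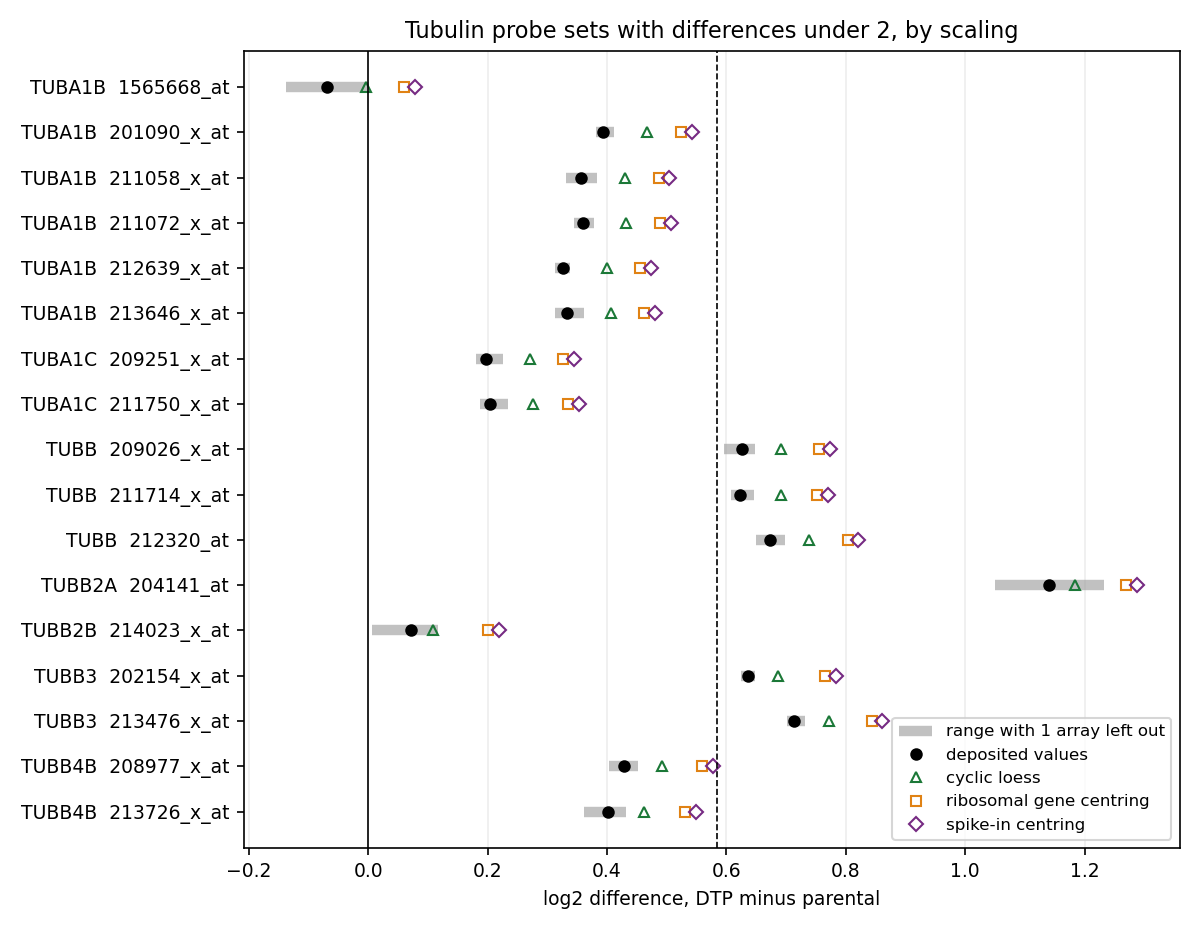
Log2 difference, DTP minus parental, of the 17 tubulin probe sets with a difference under 2, on the deposited values (filled circles), after cyclic loess, and with ribosomal gene or spike-in centring of the arrays. Grey bars span the 6 fits with 1 array left out, and the dashed line marks 1.5-fold. Centring moved every probe set to the right by 0.13 or 0.148, and no probe set crossed the dashed line.

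The quantile-normalized scale sets the level to which the smaller differences refer. The ribosomal protein genes were lower by 0.13 and the spike-in controls by 0.148 in DTPs, so centring on either raises every difference by that amount. TUBA1A was then 5.82 and 5.83, TUBB6 2.83 and 2.85, TUBA4A 2.57 and 2.59, and TUBB2A 1.27 and 1.29. The count of 9 tubulin probe sets past both thresholds stayed at 9 with any 1 array left out. A sign of RNA quality, the signal near the 3′ end of a control gene minus that near its 5′ end, did not overlap between the groups. The 3′ signal of GAPDH minus its 5′ signal was -0.18 to -0.17 in DTPs and -0.17 to -0.14 in parental cells, and that of ACTB was 0.03 to 0.08 in DTPs and 0.14 to 0.19 in parental cells. Each had an exact two-sided permutation p of 0.1, the smallest that 3 against 3 arrays can give, and their part in the tubulin differences was not tested.

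The other alpha- and beta-tubulin genes had small differences. Of 8 listed, 4 were measured (TUBA8, TUBAL3, TUBB1 and TUBB4A). None of these 4 passed both thresholds at the level of genes, and none had an unadjusted p under 0.05 by limma. TUBA8 had the lowest p, with a log2 difference of -0.12 and an adjusted p of 0.15 by limma, and TUBB1 followed with 0.13 and an adjusted p of 0.18. The TUBA8 difference was 0.0069 on ribosomal and 0.025 on spike-in centring. Of these, 3 (TUBAL3, TUBB1 and TUBB4A) had both group means below the array-wide median. For genes, represented by their brightest probe set without the _x_at mark where one existed, the background was 8.08% higher and 6.13% lower in DTPs, with a median of -0.05.

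Across 163 other genes of microtubule biology, of 173 listed, 20 were higher and 24 lower in DTPs, with a median of -0.08. On ribosomal or spike-in centring this became 26 higher and 14 lower. Over all genes, 1597 were higher and 1212 lower on the deposited values, 2191 higher and 833 lower with ribosomal centring, and 2290 higher and 795 lower with spike-in centring. For the 163 microtubule genes, which direction held more genes therefore depended on a scaling that moves all genes alike. Over all genes, more were higher than lower on each scale. Differences between the lists below were not tested. The lists were chosen with earlier results of these data known, so their counts are a description. Adjusted p values of the named genes are over all genes tested.

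**Figure D4:**
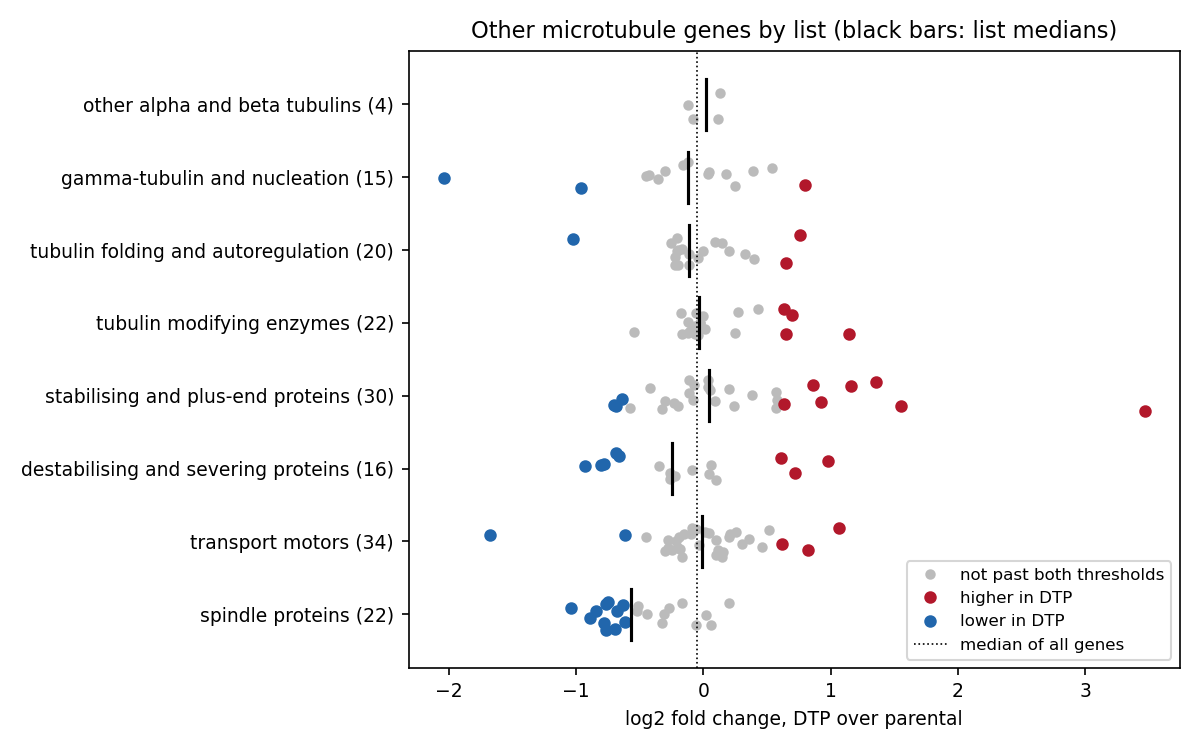
Log2 fold change, DTP over parental, of the other microtubule genes by list, with the number measured in parentheses and black bars at list medians. Red and blue points are past both thresholds, and the dotted line is the median of all genes (-0.05). Spindle proteins lie to the left with a median of -0.57, and DCLK1 stands furthest to the right at 3.47.

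Proteins that stabilise microtubules or bind their growing ends had 7 genes higher, 3 lower and 20 neither, of 30 (median 0.04). DCLK1, a doublecortin-like kinase that binds microtubules, read 9.07, 9.04 and 9.53 in DTPs, against 5.92, 5.84 and 5.48 in parental cells. It was higher in DTPs (log2 difference 3.47 ± 0.135, adjusted p = 5.7e-10 by limma), with 3 of its 4 probe sets past both thresholds. Its parental mean of 5.75 was below the 25th percentile of all probe sets (6.06), so a parental level above background was not shown and the size of the difference is uncertain. MAP2, a dendritic microtubule-associated protein, read 10.44, 10.36 and 10.52 in DTPs, against 8.73, 9.00 and 8.94 in parental cells, 2.94-fold higher (adjusted p = 1e-08 by limma). MAP9, which binds spindle and axonemal microtubules, was higher by 1.36 on the log2 scale (adjusted p = 1.6e-08 by limma), in 4 of 4 probe sets. With either centring, 10 genes of this list were higher and none lower.

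Of 22 spindle proteins, 11 were lower and 11 neither (median -0.57). The mean of the list was 9.48, 9.52 and 9.69 in DTPs, against 10.08, 10.03 and 10.03 in parental cells, with DTP replicate 3 nearest to the parental arrays. KIF15, a motor that holds spindle poles apart, was 2.05-fold lower (adjusted p = 1.4e-07 by limma). TPX2, an activator of the Aurora A kinase on the spindle, read 11.28, 11.26 and 11.54 in DTPs, against 12.25, 12.19 and 12.31 in parental cells. Its log2 difference was -0.89 (adjusted p = 2.1e-06 by limma), and that of KIF14, a motor of cytokinesis, was -0.85 (adjusted p = 1.8e-06). With either centring 7 of the 22 were lower past both thresholds, and without DTP replicate 3 there were 13. On averaging each gene's probe sets 9 were lower and 1 was higher.

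Enzymes that modify tubulin had 4 of 22 higher and 18 neither, with 1 lower when DTP replicate 3 was left out. TTLL7, a ligase that adds glutamate to beta-tubulin tails, was higher by 1.14 (adjusted p = 1.4e-07 by limma). It passed both thresholds in 2 of 3 probe sets, and the lowest was at 0.04. AGTPBP1, which removes such glutamates, was higher by 0.70 (adjusted p = 1.4e-05), with another probe set at 0.04. ATAT1, the acetylase of alpha-tubulin inside the microtubule, was higher by 0.65 (adjusted p = 2.5e-05). Averaging each gene's probe sets ended the calls for AGTPBP1 (0.37) and ATAT1 (0.57), and leaving out parental replicate 3 ended that for ATAT1 (0.58).

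Proteins that fold tubulin dimers or take part in autoregulation had 2 genes higher, 1 lower and 17 neither, of 20. PFDN2, a subunit of prefoldin, which passes new tubulin chains to the chaperonin, was lower by a log2 difference of -1.02 (adjusted p = 1.1e-07 by limma). TBCE, a cofactor in assembling the dimer, was higher by 0.65 (adjusted p = 1.3e-05), but by 0.58 and below the fold without DTP replicate 3. TBCEL, a relative of TBCE that destabilises tubulin, was higher by 0.76 (adjusted p = 1.4e-06), in 1 of 3 probe sets, and its probe set mean of 0.46 was below the fold.

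Gamma-tubulin and its partners start new microtubules at the centrosome. The gamma-tubulin and nucleation list also holds TUBD1 and TUBE1, which are tubulins of centrioles. This list had 1 gene higher, 2 lower and 12 neither, of 15, with 2 higher on either centring or without DTP replicate 1. TUBE1, the epsilon-tubulin of centrioles, read 9.99, 10.15 and 10.00 in DTPs, against 12.10, 12.12 and 12.03 in parental cells. It was 4.11-fold lower (adjusted p = 2.2e-10 by limma), although its other probe set differed by -0.005. MZT1, a small subunit of the gamma-tubulin complex, was lower with -0.96 (adjusted p = 4.5e-06), and its other probe set differed by -0.27. TUBD1, the delta-tubulin of centrioles, was higher by 0.80 (adjusted p = 1.6e-05) in 3 of 3 probe sets.

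Proteins that sever or depolymerise microtubules had 3 genes higher, 5 lower and 8 neither, of 16. KATNAL1, a katanin-like severing enzyme, was higher by 0.98 (adjusted p = 2.8e-07 by limma). KIF2C, a depolymerising kinesin of the mitotic centromere, was lower with -0.93 (adjusted p = 1.3e-06), and FIGNL1, a AAA ATPase of the fidgetin family, with -0.81 (adjusted p = 1.9e-06). With either centring 3 rather than 5 were lower. Transport motors had 3 higher, 2 lower and 29 neither, of 34, with 5 higher and 1 lower on either centring and 1 lower without DTP replicate 1. KIF21B, a neuronal kinesin, was 3.20-fold lower (adjusted p = 2e-08), DCTN5, a dynactin subunit, was higher by 1.06 (adjusted p = 1.1e-07) but by 0.48 and below the fold on averaging its probe sets, and KIF3C, a kinesin-2 motor, was higher by 0.82 (adjusted p = 9.4e-07).

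Several of the tubulins are known from neurons, and markers of other cell types were read beside them. Of 16 measured neuronal and neuroendocrine markers 1 was higher and 15 neither, with a median of 0.03 and 10 genes with both means below the array-wide median. The mean of that list was 6.99, 7.01 and 7.04 in DTPs, against 6.93, 6.99 and 7.0 in parental cells. The gene past both thresholds was NCAM1, a cell adhesion molecule, at 1.55-fold, with 4 of its 7 probe sets of the opposite sign. The count of neuronal markers higher in DTPs was 2 without DTP replicate 2, 3 on either centring, and 0 with array weights or with averaged probe sets, and 1 marker was lower without parental replicate 1. Epithelial markers were read in both groups: EPCAM averaged 13.57 in DTPs and 13.76 in parental cells, and KRT18 14.59 in DTPs and 14.49 in parental cells. Of the 9 epithelial markers KRT7 was 1.96-fold higher and CLDN7 lower with a log2 difference of -0.59 on the deposited values. The CLDN7 call ended without DTP replicate 2, without parental replicate 2, after cyclic loess and on either centring, and the KRT7 call ended on averaging its 4 probe sets. On spike-in centring 2 epithelial markers were higher. Of 9 fibroblast markers COL1A1 was 6.36-fold higher, with 1 of its 5 probe sets of the opposite sign. With averaged probe sets 2 fibroblast markers were higher. LUM differed by 0.003 at the level of genes, but its other probe set was past both thresholds at 1.19. The part of other cell types in the tubulin differences was not tested.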

How the data were processed

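RNA of 6 cultures (3 DTP, 3 parental) had been labelled with a 3′ IVT kit and hybridized to 1 array each. The log2 values deposited by the authors came from robust multi-array averaging (RMA, affy package, versions not given in the sources used here) with quantile normalization, so a change in total mRNA per cell is not visible. The number of arrays limits the precision, and the p-values rest on the spread among these samples alone, which may be technical.

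The file held 54675 probe sets. After 62 controls were removed, 54613 were tested, of which 41091 had exactly 1 gene symbol, 1801 several and 11721 none. DTPs were compared with parental cells by limma 3.58.1 in R 4.3.3 (lmFit, eBayes, two-sided, no covariate), over all probe sets and over 19775 genes (brightest probe set without _x_at where one existed). Adjusted p values are Benjamini-Hochberg over all features tested, and calls needed a fold over 1.5 with an adjusted p below 0.05, after the study's methods. Genes named in each list were the called members with the largest change, 3 at most, that had a higher group mean at or above the array-wide median, or, where none was called, the 2 with the smallest p. The 3 genes most like TUBA1A were named by the smallest root mean square difference. The members and lists were chosen with earlier results of these data known.

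The fit over 54613 probe sets was run on 5 simulations with 200 changed probe sets each. Of those changed 1.5-fold 35.6% were called, with 97.2% at 2-fold, 99.6% at 4-fold and 100% at 8-fold. At 1.5-fold 64.4% were past the adjusted p, but a call also needed an estimated fold over 1.5. The simulations changed far fewer probe sets than passed the adjusted p in the real data (38.7%), so these rates may not hold there. Alternatives were leaving out each array, the replicate number as a block, cyclic loess, ribosomal and spike-in centring, a filter on dim probe sets, variance settings, array weights, stricter thresholds, the methods' t-test and other choices of probe set. Motifs were searched with Python 3.11.15 in RefSeq promoter windows. Protein sequences were not used here.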

Additional observations from a re-analysis of the deposited data

How the results depend on the processing

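The count of tubulin probe sets past both thresholds was 9 under every alternative that kept the fold minimum of 1.5, and 4 at a fold over 2 (TUBA1A, TUBA4A, TUBB2A and TUBB6). At that fold 1685 probe sets were higher and 886 lower in DTPs, 679 genes were higher and 431 lower, and 6 other microtubule genes were higher and 4 lower. Ribosomal centring gave 1779 probe sets and 14 other microtubule genes lower, and spike-in centring gave 1697 probe sets, 795 genes and 14 other microtubule genes lower. The TUBA8 difference turned to 0.0069 with ribosomal and 0.025 with spike-in centring. These changes with centring follow from a shift of all values by 0.13 or 0.148. With 1 array left out, the other microtubule genes higher in DTPs numbered 19 to 22 and those lower 22 to 27, and genes numbered 1552 to 1657 higher and 1134 to 1352 lower. Deviations of same-numbered replicates correlated at -0.119, 0.0158 and -0.06. These values gave no sign of pairing by number, but with 3 arrays per group they cannot exclude it. With the replicate number as a block there were 9 tubulin probe sets, 1597 genes higher and 1212 lower, and 20 other microtubule genes higher and 24 lower. Dim probe sets, the top of the intensity range and cross-binding _x_at probes limit what the values can show.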
